A study of Mus musculus with 4 samples.

Results

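The TNF death signaling genes were followed on 4 one-color Agilent mouse arrays of pancreatic islet cells. The 10 genes were Tnfrsf1a, Traf2, Birc2, Birc3, Ripk1, Fadd, Casp8, Cflar, Ripk3 and Mlkl. They are 10 of the 22911 genes that could be named on the array, and 17 of its 56605 gene probes. Of these, 16 were named through their RefSeq accessions, and 1 further probe of Ripk1 (A_55_P2713935) carries an Ensembl transcript name and was taken as Ripk1 because the study lists it under that symbol. Ripk1 was chosen by its value on these arrays, since the study named it for the change of that probe. The other genes were taken for their known roles beside it, with earlier results of these data known. Values of Ripk1 are therefore given as a description, and nothing rests on them.

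The islet cells came from 60-week-old C57BL/6 mice, 4 littermates labelled male, and were islets picked by hand and dispersed before treatment. 2 arrays carried RNA of cells given a scrambled peptide (replicates 1 and 2) and 2 carried RNA of cells given MOTS-c (replicates 2 and 3), a peptide encoded in the mitochondrial 12S rRNA gene. Both peptides were given ex vivo at 10 μM for 24 h. The scrambled peptide shares its amino acids with MOTS-c but not their order, and no group went without a peptide. All 4 arrays lay on 1 slide. No animal is named for any array, so a p-value measures the spread between these samples only. An exact permutation test of 2 against 2 arrays cannot go below a two-sided p of 0.333.

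TNF binds its receptor Tnfrsf1a at the cell surface, which gathers the adaptor Traf2, the ubiquitin ligases Birc2 and Birc3 and the kinase Ripk1. While Ripk1 carries ubiquitin chains, the complex signals to NF-kB and the cell lives. When the chains are lost, Ripk1 joins Fadd and Casp8, and active Casp8 starts apoptosis. Cflar, an inactive relative of Casp8, holds Casp8 in check. Where Casp8 is blocked, Ripk1 binds Ripk3, which phosphorylates Mlkl, and Mlkl opens the plasma membrane in the lytic death called necroptosis. In islets, TNF together with other inflammatory cytokines is known to harm beta cells.

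Between 61.6% and 65.0% of gene spots on each array were well above background, a call that the scanner software makes for each spot, and 0 gene spots were saturated. Of the beta cell markers, 9 of 10 were measured, Ins1, Ins2 and Iapp among them, while Ucn3 was not well above background on any array. Of the macrophage markers, 6 of 10 were measured, and Ptprc, Adgre1, C1qc and Lyz2 were not well above background on any array. The label for sex was not borne out. Xist lay between 9.55 and 10.2 on the log2 scale and was well above background on all 4 arrays, and no probe of the Y-linked Ddx3y, Eif2s3y, Kdm5d or Uty was so on any. This held for every array of both groups, so no comparison could be made without them. In bulk RNA of this kind, fewer cells of a type and less RNA per cell cannot be told apart.

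Of the 10 genes, 8 were measured and 2 were not. All 15 probes of Tnfrsf1a, Traf2, Birc2, Ripk1, Fadd, Casp8, Cflar and Mlkl were well above background on all 4 arrays. Ripk3, the kinase that passes the necroptosis signal to Mlkl, has 1 probe, and it was not well above background on any array. Its intensities as deposited were 3.28 and 3.73 with scrambled peptide and 7.77 and 12.8 with MOTS-c. Birc3, the ubiquitin ligase that works beside Birc2, also has 1 probe and was not well above background on any array. Its intensities were 3.12 and 3.45 with scrambled peptide and 2.89 and 2.85 with MOTS-c. Neither gene was tested and neither has a fold change. A probe that is not well above background gives no measured level, and does not show that the transcript is absent.

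The split between Birc2 and Birc3 lies within a pair of neighbours. In the RefSeq gene table of assembly GRCm38.p6, Birc2 and Birc3 lie next to each other on chromosome 9 with 0 genes between them, and Casp8 and Cflar lie near each other on chromosome 1 with 0 protein-coding genes between them. The array was designed on another build, so positions in the gene table were used here only for neighbours and for the extent of genes. The accessions in that table also gave probes their symbols. RefSeq promoter sequences were found for all 10 genes, with 12 starts in all. The 250 bases before a start are shown for the neighbours that differ in detection (Birc2 and Birc3), for Ripk1 and Ripk3, the kinases that bind each other, and for Casp8, which was measured and holds the fewest CpG of the 10 genes together with Mlkl. They read 5′ to 3′ along the gene's strand in GRCm38.p6, and capitals mark every CpG dinucleotide. The Casp8 window lies inside the gene, which the gene table gives as chr1:58795233-58847503, and not before its first base. The Ripk1 window shown likewise lies inside its gene, given as chr13:34002225-34035170. So do the windows of Mlkl and of the other Birc2 start, which are not shown. The windows shown for Birc2 and Birc3 overlap their genes in part.
Birc2 start 1, chr9:7837058-7837307, minus strand: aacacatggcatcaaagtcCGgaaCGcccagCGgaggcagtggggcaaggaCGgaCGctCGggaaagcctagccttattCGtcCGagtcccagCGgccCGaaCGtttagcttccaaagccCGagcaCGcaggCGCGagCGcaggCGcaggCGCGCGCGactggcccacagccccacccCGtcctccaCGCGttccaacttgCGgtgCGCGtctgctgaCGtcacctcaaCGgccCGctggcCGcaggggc
Birc3, chr9:7873171-7873420, minus strand: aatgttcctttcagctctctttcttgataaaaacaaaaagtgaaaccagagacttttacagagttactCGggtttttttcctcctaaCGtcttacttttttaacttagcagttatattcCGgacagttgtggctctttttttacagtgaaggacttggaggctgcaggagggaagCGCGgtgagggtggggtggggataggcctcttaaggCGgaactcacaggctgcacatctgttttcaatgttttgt
Ripk1 start 2, chr13:34002624-34002873, plus strand: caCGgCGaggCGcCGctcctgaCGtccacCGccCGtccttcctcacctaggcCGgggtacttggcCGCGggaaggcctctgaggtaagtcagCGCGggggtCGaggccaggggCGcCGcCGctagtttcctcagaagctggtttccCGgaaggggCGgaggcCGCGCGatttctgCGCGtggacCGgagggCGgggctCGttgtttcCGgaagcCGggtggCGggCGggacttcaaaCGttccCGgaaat
Ripk3, chr14:55788858-55789107, minus strand: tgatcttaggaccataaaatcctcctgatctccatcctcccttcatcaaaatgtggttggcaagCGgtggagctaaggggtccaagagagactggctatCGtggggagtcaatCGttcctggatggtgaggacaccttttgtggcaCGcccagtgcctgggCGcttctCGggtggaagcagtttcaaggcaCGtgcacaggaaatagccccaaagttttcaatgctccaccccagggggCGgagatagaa
Casp8, chr1:58802252-58802501, plus strand: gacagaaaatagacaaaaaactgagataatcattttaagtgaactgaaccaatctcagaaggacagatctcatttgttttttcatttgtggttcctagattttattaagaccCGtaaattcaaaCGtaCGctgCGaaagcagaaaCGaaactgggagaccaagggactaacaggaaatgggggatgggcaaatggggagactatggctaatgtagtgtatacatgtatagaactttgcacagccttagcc

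These promoters differed widely in CpG, the dinucleotide that is dense at the starts of many broadly expressed genes. The 250 bases shown for Birc2 held 31 CpG, the window of its other start held 19, and those of Birc3 held 6. For Ripk1 the window shown held 32 and that of its other start 19, and the window of Ripk3 held 8. Fadd and Traf2 held 19 each, Tnfrsf1a 9, Cflar 7, and Mlkl and Casp8 5 each. The median was 14 CpG (quartiles 7 and 22) over 14910 promoters of genes well above background on all 4 arrays, and 3 (quartiles 1 and 6) over 5951 promoters of genes well above background on none. Over all 32851 promoters the median was 6 (quartiles 2 and 16). Birc3, at 6, lay at that median, and Casp8 and Mlkl, at 5, lay under it, although the last pair were measured on every array. The counts of Casp8, of Mlkl and of the Ripk1 window shown are those of windows inside the genes. The bases before the first annotated base of Casp8 and of Mlkl were not counted. Ripk3, at 8, lay above the median of all promoters and between the quartiles of the measured set, as did Tnfrsf1a at 9. Cflar lay at the lower of these quartiles. Windows with 10 or fewer CpG made up 37.1% of the first set and 87.0% of the second.

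**Figure D1:**
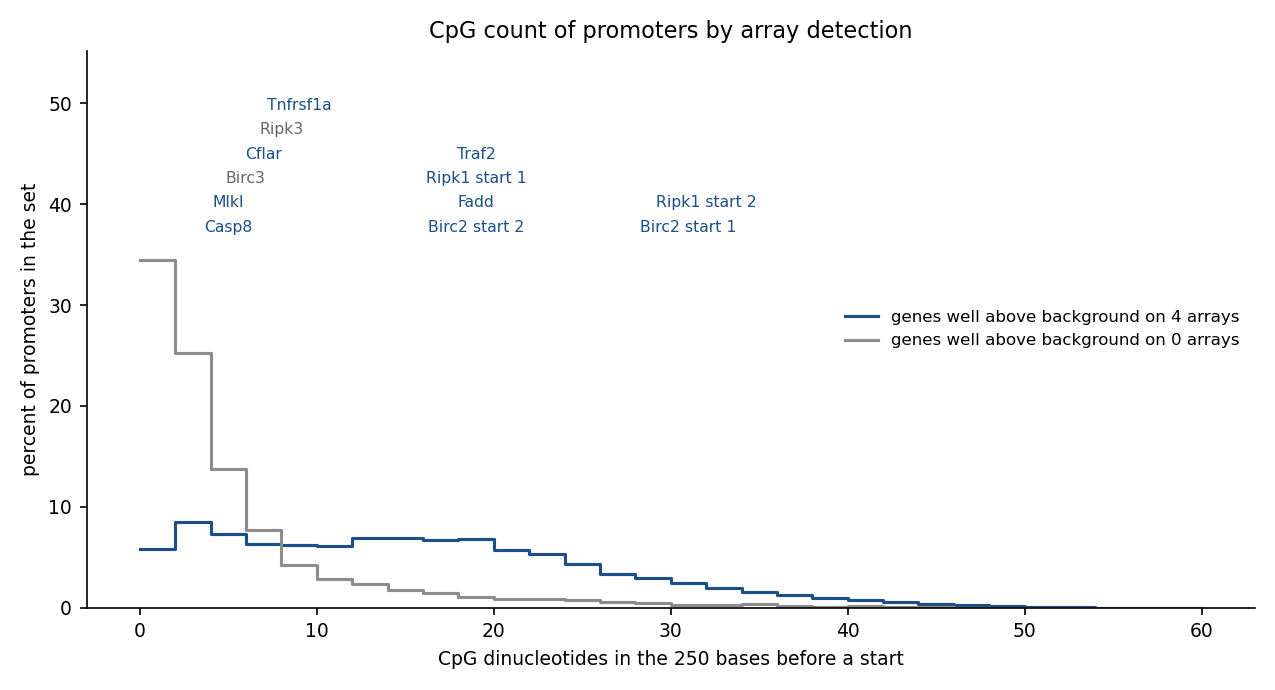
The x axis gives the number of CpG dinucleotides in the 250 bases before a start and the y axis the percent of promoters in steps of 2 CpG, for genes well above background on all 4 arrays and on 0 arrays. Gene names mark the 12 starts of the death signaling genes at their CpG count (their height has no meaning), in gray for Ripk3 and Birc3, which were not measured.

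The same windows were searched on both strands for letters of binding motifs. GGGNNTTTC, the leading letters of a form of the NF-kB motif, was in 0 of the 12 windows and in 3.72% of all 32851. GAAANNGAA, letters of the motif of interferon-regulated factors, was in 0 of the 12 and in 7.13% of all. The search says only that these letters are not in these windows.

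Among the 15 tested probes the log2 fold change, the mean of the MOTS-c arrays less that of the scrambled arrays, ran from -0.39 to 0.64. The highest value is that of the selected Ripk1 probe, which by the labels was higher with MOTS-c. The study's supplementary list also has this probe higher with MOTS-c, while the discussion of the study gives the opposite direction for Ripk1. Levels are quantile-normalized log2 intensities, and SE is the standard error of a fold change. The fold change was above 0 for 11 probes and below 0 for 4. The median was 0.05, against 0.01 over all 35087 probes tested. limma with Benjamini-Hochberg adjustment called 0 of the 15 probes (adjusted p under 0.05), as it did 0 of 35087 (0%). Before adjustment (p under 0.05) it called 1 of the 15 and 7.85% of all probes, and with a change of at least 1.5-fold besides it called the same 1 and 3.53% of all. That probe is A_55_P2713935, the one selected on these arrays, so its place in the count supports nothing. Without the 3 Ripk1 probes, 12 remained, and 0 of the 12 were called after adjustment, before it, or before it with a change of at least 1.5-fold. Over the whole array, limma called 2755 probes before adjustment, and the methods' t-test called 2312, with 1 left after adjustment.

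The MOTS-c values both exceeded the scrambled values for 6 of the 15 probes and fell short of them for 3. Such groups are called separate below. Over all probes tested, 19.4% were higher without overlap and 18.6% lower. Without the 3 probes of Ripk1, 12 probes remained, of which 4 were higher without overlap (33.3%) and 3 lower (25%). Probes of the same gene share their target, and Cflar alone gave 2 of these 4 and 1 of these 3.

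**Figure D2:**
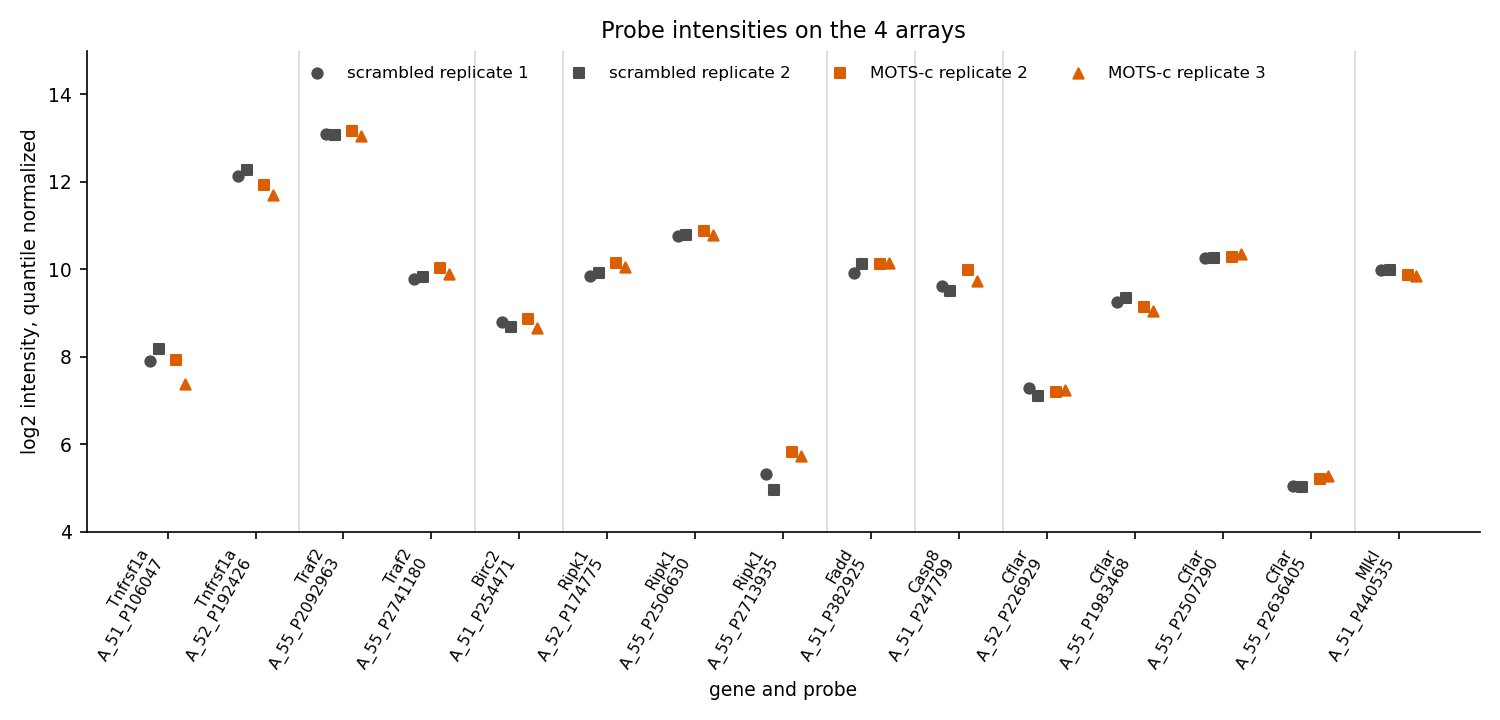
Each point is the quantile-normalized log2 intensity (y axis) of 1 probe (x axis, by gene) on 1 array, gray for scrambled peptide and orange for MOTS-c. Heights can be compared within a probe but not between probes, and in both Tnfrsf1a probes the lowest point is MOTS-c replicate 3.

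Tnfrsf1a, the receptor at the head of the pathway, gave the lowest fold changes of the group, and its 2 probes gave the same size. Probe A_52_P192426 read 12.13 and 12.28 on the log2 scale with scrambled peptide and 11.93 and 11.70 with MOTS-c. The 2 groups were separate, with MOTS-c the lower, with a log2 fold change of -0.39 (SE 0.15, limma adjusted p = 0.637). Probe A_51_P106047 read 7.91 and 8.18 with scrambled peptide and 7.93 and 7.38 with MOTS-c. Its groups overlapped, since MOTS-c replicate 2 lay just above scrambled replicate 1, and its log2 fold change was also -0.39 (SE 0.23, limma adjusted p = 0.747). Neither change passed the test. Of the 4461 genes with 2 tested probes, 0.493% had probes whose fold changes lay closer together. The values moved when an array was left out. Without MOTS-c replicate 2 the values were -0.50 and -0.66, and without MOTS-c replicate 3 they were -0.28 and -0.12.

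Traf2, the adaptor that brings the ubiquitin ligases to the receptor, gave values near 0 with both of its probes. Probe A_55_P2092963 read 13.11 and 13.07 with scrambled peptide and 13.17 and 13.04 with MOTS-c, and the groups overlapped. Its log2 fold change was 0.02 (SE 0.13). Probe A_55_P2741180 read 9.79 and 9.84 with scrambled peptide and 10.03 and 9.89 with MOTS-c, so that both MOTS-c arrays were higher, by a log2 of 0.14 (SE 0.13, limma adjusted p = 0.833). Birc2, which puts ubiquitin on Ripk1, read 8.80 and 8.68 with scrambled peptide and 8.86 and 8.66 with MOTS-c. The MOTS-c arrays lay on either side of the scrambled arrays, and the log2 fold change was 0.02 (SE 0.14, limma adjusted p = 0.988).

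Ripk1, the kinase whose ubiquitin state decides between survival and death signals, was read by 3 probes that differed in how much they changed. The probe selected on these arrays, A_55_P2713935, was the dim one. Its intensities as deposited were 40.8 and 29.5 with scrambled peptide and 54.9 and 57.9 with MOTS-c. Background was already subtracted from these intensities, and what remained was between 1.05 and 2.00 times the local background of the spot. On the normalized log2 scale it read 5.33 and 4.96 against 5.83 and 5.74. Both MOTS-c arrays were higher, by a log2 of 0.64 (SE 0.17), or 1.56-fold. The scanner's own error for this spot came to between 0.17 and 0.23 on the log2 scale, against 0.14 for the other Ripk1 probes.

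The other Ripk1 probes changed less. A_52_P174775 read 9.85 and 9.92 with scrambled peptide and 10.14 and 10.06 with MOTS-c. Both MOTS-c arrays were higher, by a log2 of 0.21 (SE 0.12). A_55_P2506630 read 10.77 and 10.79 with scrambled peptide and 10.89 and 10.78 with MOTS-c. Its groups overlapped, and its log2 fold change was 0.05 (SE 0.12). After the same subtraction, both of these probes lay at 34.2 times the local background or more. The fold change of the dim probe was higher than the mean of the others by a log2 of 0.50, and that of A_55_P2506630 was lower than the mean of the others by 0.37.

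The spread among the Ripk1 probes was wide for a gene with 3 probes, through the selected probe added from the study's list. The probes of other genes were those named by RefSeq alone, and the RefSeq-named probes of Ripk1 gave only 0.21 and 0.05. With the added probe the Ripk1 fold changes spanned a log2 of 0.59. That was a wider span than in 95% of the 1040 genes with 3 tested probes, where the median span was 0.19. All 3 had the same sign, as in 55.1% of such genes. The dimmest probe had the largest change, as in 41.8% of such genes. This span was itself part of the contrast by which Ripk1 was chosen. Over the whole array, 13107 probes could be set against the other probes of their gene, and limma called 0 of them (0%) after adjustment and 672 (5.127%) before it.

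The value of the dim probe moved with the background correction. With the normexp correction in place of the scanner's, its log2 fold change was 0.23, close to the 0.24 of A_52_P174775 under that correction, and its difference from the other probes was 0.07. Leaving out 1 array at a time gave 0.46 without scrambled replicate 2 and 0.81 without scrambled replicate 1. Averaged over the 3 probes, Ripk1 read 8.65 and 8.56 with scrambled peptide and 8.95 and 8.86 with MOTS-c, a log2 fold change of 0.30 (SE 0.11). With its brightest probe in place of the mean it was 0.05.

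**Figure D3:**
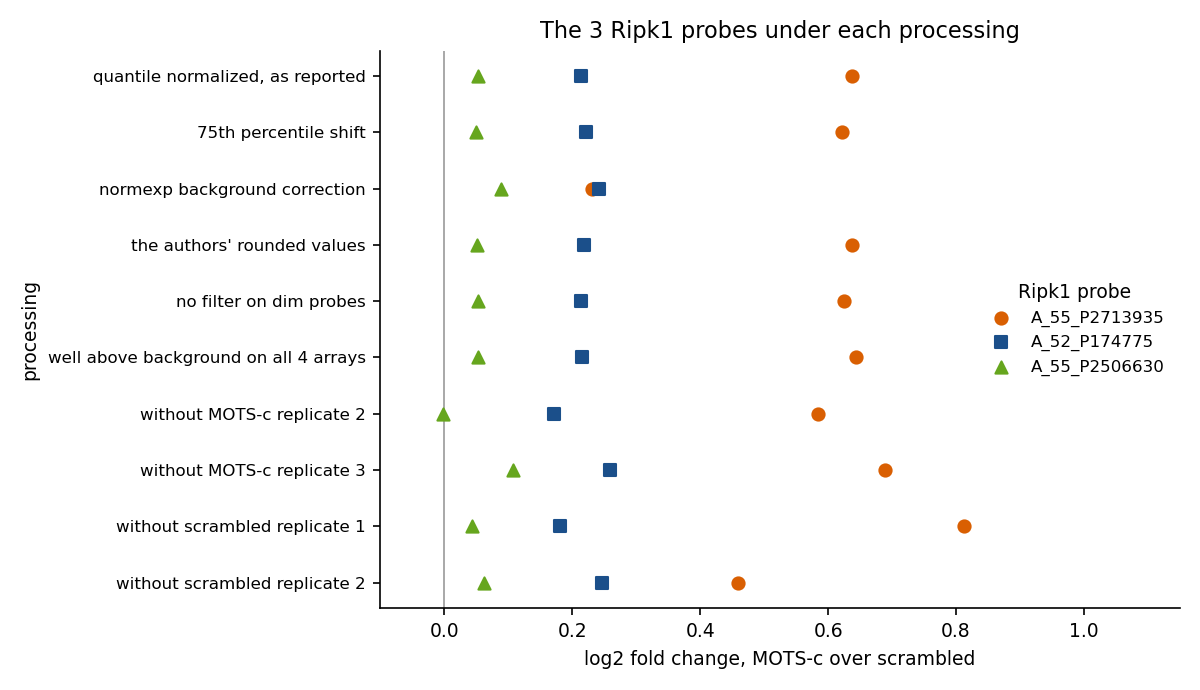
The x axis gives the log2 fold change (MOTS-c over scrambled) of the 3 Ripk1 probes and the y axis the processing, 1 row for each setting or left-out array. A_55_P2713935 lies between 0.46 and 0.81 in every row but the normexp correction, where it falls to 0.23 beside A_52_P174775.

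Fadd, the adaptor that links Ripk1 to Casp8, read 9.91 and 10.13 with scrambled peptide and 10.13 and 10.14 with MOTS-c. The groups overlapped, and the log2 fold change of 0.12 (SE 0.14, limma adjusted p = 0.878) came to 0.0042 without scrambled replicate 1. Casp8, the protease that starts apoptosis, read 9.62 and 9.50 with scrambled peptide and 9.98 and 9.74 with MOTS-c. Both MOTS-c arrays were higher, by a log2 of 0.31 or 1.24-fold (SE 0.15, limma adjusted p = 0.700). The change of Casp8 did not pass the test, and it ranged from 0.19 to 0.43 with each array left out in turn. Casp8 has 1 probe, so no second probe could be set beside it.

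Cflar, the brake on Casp8, was read by 4 probes that did not share a direction. A_55_P1983468 read 9.25 and 9.35 with scrambled peptide and 9.15 and 9.05 with MOTS-c. Both MOTS-c arrays were lower, by a log2 fold change of -0.20 (SE 0.13, limma adjusted p = 0.759). A_55_P2636405 was a dim probe, at 1.03 to 1.25 times the local background after background was subtracted. It read 5.06 and 5.03 with scrambled peptide and 5.22 and 5.28 with MOTS-c. Both MOTS-c arrays were higher here, by a log2 of 0.21 (SE 0.12, limma adjusted p = 0.745), or by 0.08 with the normexp background correction. A_55_P2507290 gave 0.05 and A_52_P226929 gave 0.04, the first without overlap and the second with it.

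The fold changes of the Cflar probes spanned a log2 of 0.41, a wider span than in 79.2% of the 207 genes with 4 tested probes. Mixed signs were common there, since 47.8% of such genes had 1 sign throughout. A_55_P1983468 lay below the mean of the other Cflar probes by a log2 fold change of -0.30 (limma adjusted p = 0.907), and A_55_P2636405 lay above it by 0.24 (limma adjusted p = 0.907), or by 0.08 with normexp. Cflar makes a long and a short protein by splicing, and the files used here do not say which transcripts each probe reads. Averaged over its probes, Cflar gave a log2 fold change of 0.02.

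Mlkl, the protein that opens the membrane in necroptosis, read 9.98 and 9.99 with scrambled peptide and 9.88 and 9.84 with MOTS-c. Both MOTS-c arrays were lower, by a log2 fold change of -0.12 (SE 0.12, limma adjusted p = 0.842). The 2 scrambled arrays almost coincided for Mlkl. Mlkl was thus measured on every array while Ripk3, its activating kinase, was not well above background on any.

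Taken gene by gene, as the mean of the tested probes, the order of the fold changes on the log2 scale was Casp8 (0.31), Ripk1 (0.30), Fadd (0.12), Traf2 (0.08), Cflar (0.02), Birc2 (0.02), Mlkl (-0.12) and Tnfrsf1a (-0.39). The SE of these values lay between 0.10 and 0.18, so that neighbours in the order lay within 1 SE of each other apart from the steps from Ripk1 to Fadd, from Birc2 to Mlkl and from Mlkl to Tnfrsf1a. For the 7 genes other than Ripk1 the adjusted p lay between 0.527 and 0.978 by limma.

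**Figure D4:**
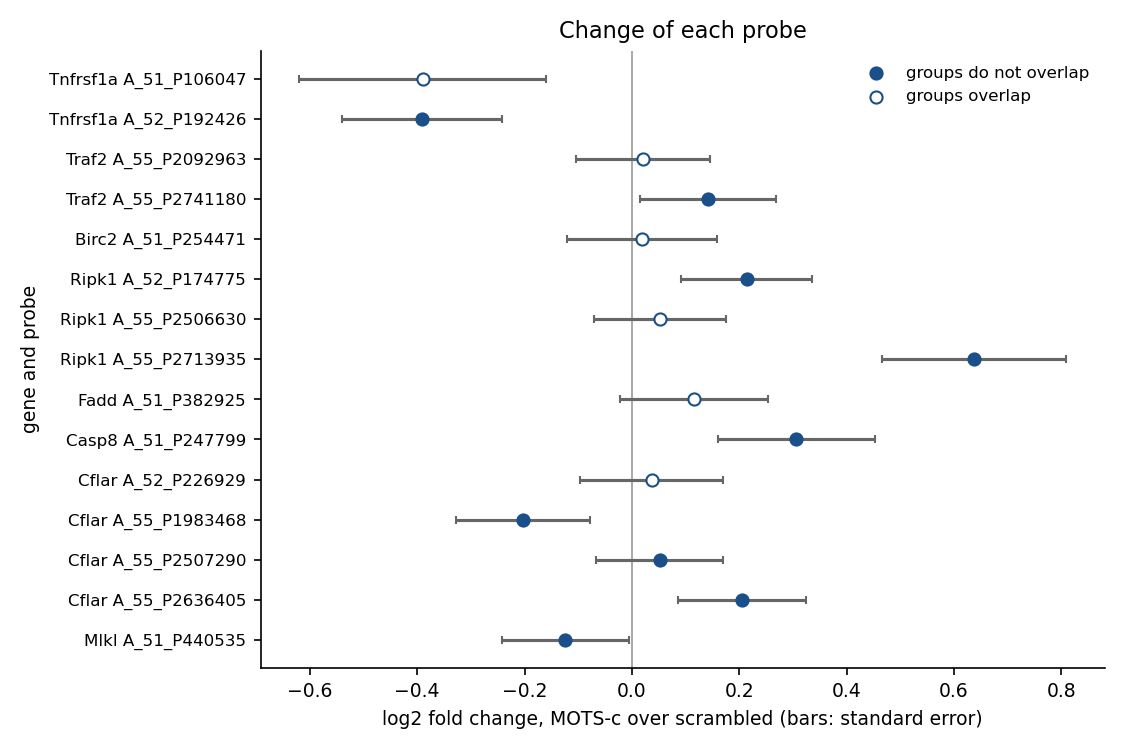
Each row is 1 of the 15 tested probes, and the x axis gives its log2 fold change (MOTS-c over scrambled) with the standard error (SE) as a bar. Filled points mark probes whose groups do not overlap, 6 to the right of 0 and 3 to the left, and the Ripk1 probe at 0.64 and the Tnfrsf1a probes at -0.39 lie farthest from 0.

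Around these genes, 97 others of the TNF and cell death pathways were followed in 7 lists, drawn up with earlier results of these data known. All 97 have a probe on the array and 81 were tested, each as the mean of its tested probes. Their median log2 fold change was 0.03, against 0.00 over all genes tested. limma called 0 of the 81 after adjustment, as it did 0 of the 15470 genes tested (0%), of which 1592 had p under 0.05 before it. Genes were then counted that had separate groups and an unadjusted p under 0.05, and these are the genes called higher or lower below. Of the 81, 5 were higher with MOTS-c and 7 lower. That is 6.17% and 8.64%, against 3.7% and 6.59% of all genes. 1 of the 5, Ccl5, was below the detection call on both scrambled arrays and well above background on both MOTS-c arrays, so it passed the filter through the group where it was high and gives no support, which leaves 4 higher. The adjusted p of these 12 genes lay between 0.318 and 0.478 by limma. 5 of them (Tnfsf10, Tank, Ripk2, Relb and Casp6) are also in the study's own list, which was selected on these arrays. Of the 7 lower genes, Tnfsf10, Tnfsf12, Bcl3 and Ticam1 have 1 probe each. In the probe fit of the same values the unadjusted p by limma was 0.0512 for Tnfsf12 and 0.0554 for Ticam1, above the threshold. It was 0.0075 for Tnfsf10 and 0.0087 for Bcl3.

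**Figure D5:**
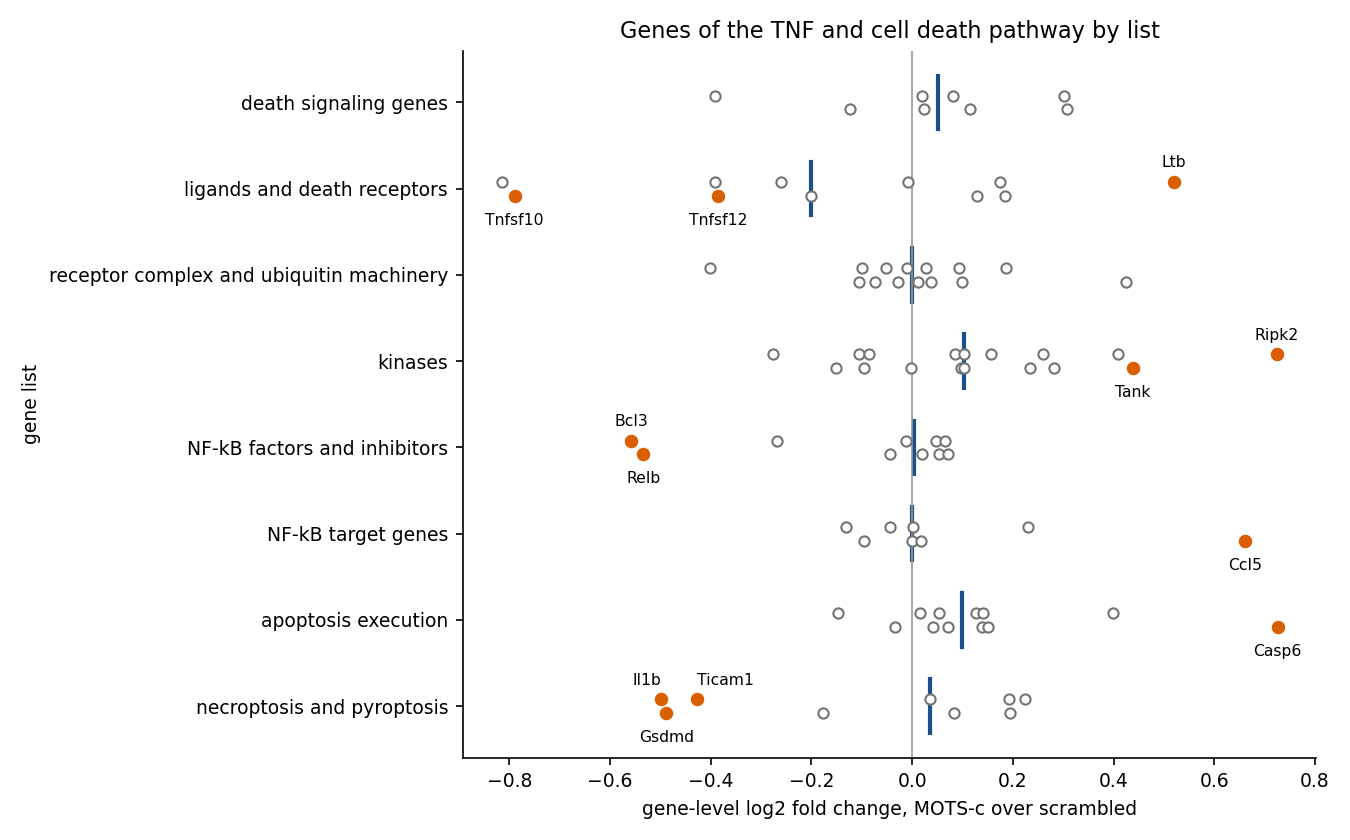
Each point is 1 gene at its log2 fold change (x axis, MOTS-c over scrambled), by list (y axis), with a blue bar at the median of the list. Orange points with names are the 5 higher and 7 lower genes of the 7 pathway lists at an unadjusted p under 0.05 without overlap, and the top row holds the 8 measured death signaling genes.

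Ligands and receptors gave the lowest median of the 7 lists, -0.20 over 11 genes tested of 14. Of these, 1 was called higher (9.09%) and 2 lower (18.2%), against 3.7% and 6.59% of all genes. Tnfsf10, the death ligand TRAIL, read 8.19 and 7.80 with scrambled peptide and 7.25 and 7.16 with MOTS-c, a log2 fold change of -0.79 (SE 0.16). The groups were separate, and with normexp the value was -0.51. Tnfsf12, the ligand TWEAK, was lower by a log2 fold change of -0.38, and Ltb, the membrane-bound part of lymphotoxin, was higher by 0.52, or by 0.30 with normexp. Tnf itself overlapped, with both MOTS-c arrays between the 6.78 and 7.31 of the scrambled arrays. Fas, well above background on 3 arrays, gave -0.82 with a SE of 0.38. It did so through scrambled replicate 1, at 5.33, while the other arrays lay between 3.89 and 4.22. Tnfrsf1b, the second TNF receptor, gave 0.18 with overlap. Lta, Fasl and Tnfsf14 were not well above background on any array.

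The receptor complex and its ubiquitin machinery stood close to 0. None of its 14 tested genes was called in either direction, and the median was 0.00. Tax1bp1, a partner of the ubiquitin editor Tnfaip3, had the highest value at 0.43 (SE 0.21, limma adjusted p = 0.571). Tnip1, another partner of Tnfaip3, had the lowest at -0.40 (SE 0.17, limma adjusted p = 0.526). Xiap, an inhibitor of caspases, gave 0.19 with overlap and Spata2, which tethers the deubiquitinase Cyld, gave -0.11.

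Among the kinases and their adaptors, 17 of 17 genes were tested. Of these, 2 were called higher (11.8%) and 0 lower, against 3.7% and 6.59% of all genes. Ripk2, a relative of Ripk1 that serves the NOD receptors, read 4.84 and 5.05 with scrambled peptide and 5.87 and 5.47 with MOTS-c, a log2 fold change of 0.72 (SE 0.18), which normexp lowered to 0.31. Tank, an adaptor of the kinase Tbk1, was higher by 0.44, and its 3 probes gave 0.39, 0.31 and 0.61, each without overlap. Ripk4, another kinase of the Ripk1 family, gave -0.28 and Ikbke gave -0.15, neither of them called. The gene profiles nearest to that of Ripk1 over the 4 arrays, by Euclidean distance after centering each gene on its mean, were those of Pgam5 (0.08), Azi2 (0.14) and Map3k7 (0.16), among the 81 tested genes. Their log2 fold changes were 0.22, 0.23 and 0.16. The Ripk1 profile includes the selected probe, so nearness to it is a description and supports nothing. The distance was not computed over all genes tested.

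Of the NF-kB factors and inhibitors, all 10 were tested. Among them 2 were called lower (20%) and 0 higher, against 6.59% and 3.7% of all genes. Relb, the factor of the noncanonical branch, read 8.66 and 8.72 with scrambled peptide and 8.27 and 8.05 with MOTS-c, a log2 fold change of -0.53 (SE 0.12). Both of its probes were lower without overlap, at -0.60 and -0.47. Bcl3, a nuclear protein that binds NF-kB factors, read 10.64 and 10.62 with scrambled peptide and 9.99 and 10.15 with MOTS-c, at -0.56 (SE 0.11). Rela, the main factor of the canonical branch, gave 0.07 with overlap, and Nfkbie, an inhibitor, gave 0.07.

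The target genes of NF-kB were partly out of reach. Of 14, 8 were tested, and Cxcl1, Cxcl2, Ccl20, Icam1, Vcam1 and Il6 were not well above background on any array. The median of the 8 was 0.00. Ccl5, a chemokine, read 3.36 and 3.80 with scrambled peptide, where it was not well above background on either array, and 4.39 and 4.10 with MOTS-c, where it was on both. Its scrambled level was thus not measured. The MOTS-c mean was 1.14-fold over the lowest signal called well above background on the scrambled arrays. A probe without the call can read above that lowest signal, so the value is no lower limit of the change. The fitted log2 fold change of Ccl5 was 0.66 (SE 0.20), or 0.13 with normexp. Cxcl10, another chemokine, gave -0.13 and the transcription factor Irf1 gave -0.10, both without overlap but not called, and Lcn2 gave 0.23 with overlap.

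In the apoptosis execution list all 12 genes were tested. Among them 1 was called higher (8.33%) and 0 lower, against 3.7% and 6.59% of all genes. Casp6, an executioner caspase, read 7.74 and 7.38 with scrambled peptide and 8.48 and 8.09 with MOTS-c, a log2 fold change of 0.73 (SE 0.20). Dffa, which restrains the nuclease that cuts DNA in dying cells, gave 0.40 and was higher without overlap, but was not called. Dffb, that nuclease, gave -0.15 and Htra2 gave -0.03, both with overlap.

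Necroptosis and pyroptosis genes gave 3 lower (33.3%) and 0 higher among 9 tested of 15, against 6.59% and 3.7% of all genes. The list was drawn up with earlier results of these data known. Il1b, the cytokine that inflammasomes activate, read 9.15 and 9.24 with scrambled peptide and 8.78 and 8.61 with MOTS-c, a log2 fold change of -0.50 (SE 0.12), and its 2 probes gave -0.49 and -0.50. Gsdmd, whose cut form makes pores in pyroptosis, was lower by -0.49 (SE 0.14), with -0.53 and -0.45 from its 2 probes. Ticam1, the adaptor through which Tlr3 and Tlr4 reach Ripk1, was lower by -0.43 (SE 0.16). In the probe fit its unadjusted p by limma was 0.0554, above the threshold. Pgam5 gave 0.22 and Pycard 0.19, neither of them called. Tlr3, Tlr4, Casp4 and Casp12 were not well above background on any array. Macrophages also make Il1b, and of the 6 measured macrophage markers 1 was lower by the same rule, C1qa at -0.67, measured on all 4 arrays. Cd14 read 3.90 and 4.06 with scrambled peptide and 4.27 and 4.70 with MOTS-c. It was well above background on the 2 MOTS-c arrays only and had passed the filter through them, so its higher value gives no support. The MOTS-c mean of Cd14 was 1.35-fold over the lowest signal called well above background on the scrambled arrays, which is no lower limit of the change. The groups of the other measured macrophage markers overlapped, at -0.11 for Csf1r, -0.20 for C1qb, -0.18 for Itgam and 0.15 for Cd68. The summed intensity of that list was 11355 and 12606 with scrambled peptide and 10198 and 12449 with MOTS-c, so the groups overlapped. The part of these cells in the result was not tested.

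The counts for the 7 lists rested on few arrays, and no list was tested as a set. Without scrambled replicate 1, or without MOTS-c replicate 2, 3 genes were called higher in place of 5, and without scrambled replicate 2, 4 were called lower in place of 7.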

How the data were processed

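Per the labels, RNA of islet cells was hybridized to 4 one-color arrays, 2 for each group, and groups and replicate numbers were taken from the labels. The authors labeled amplified RNA with Cy3 and read the spots of each array with Feature Extraction (version 11.0.1.1). The deposited intensity values are corrected for background within an array and not normalized between arrays, and a second deposited table holds the same intensity values rounded (ratio between 0.995 and 1.005). Here, control and outlier spots were dropped, the deposited intensities were put on the log2 scale and averaged per probe, a probe had to be well above background on 2 or more arrays, and the quantile method was applied.

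MOTS-c was compared with scrambled by limma (version 3.58.1, under R 4.3.3) for 35087 probes, for the mean of the tested probes of each of 15470 genes, and for each of 13107 probes against the other probes of its gene, with Benjamini-Hochberg adjustment over each whole table. limma added 2.64 degrees of freedom to the 2 residual ones. Through the RefSeq table of GRCm38.p6, 32994 probes had a symbol. A further 7284 under Ensembl transcript names and 13435 under other names had none, so other genes may have probes not counted here, whereas Ripk1 gained 1 by the study's list.

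The members and gene lists were chosen with earlier results of these data known. The text names all 10 members, and of the 7 pathway lists the genes at an unadjusted p under 0.05 without overlap, the 2 highest and 2 lowest of each list, and the 3 nearest to Ripk1. Tnf, the cell type and sex markers and the genes not well above background were added after their values were seen. The alternatives were a 75th percentile shift, normexp (offset 50) on median spot signals, the rounded values, no filter, a filter for all 4 arrays, each array left out, limma with a trend, the methods' t-test and the brightest probe of a gene. The limma fit and the subtraction between probes of a gene were tested on simulated arrays, and the other steps were not. The planted changes were larger than any given here. The number of arrays limits the precision.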

Additional observations from a re-analysis of the deposited data

How the results depend on the processing

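No paired analysis was possible because the groups share only replicate number 2. With 1 slide there was no slide block to fit, and leaving out an array leaves 1 in its group, which is assumed to vary like the others. Across the alternatives, 11 of 15 member probes, 7 of 11 differences between probes and 34 of 40 named genes never changed sign, and 608 single values kept sign and side of the threshold while 24 changed sign. With the normexp correction 406 probes passed an unadjusted p under 0.05 with 1.5-fold in place of 1239, 457 with the methods' t-test, and 1374 to 3264 with an array left out. Member probes passing this rule numbered 0 under normexp and under the methods' t-test and 0 to 1 with an array left out, in place of 1, the selected Ripk1 probe. Member probes at an adjusted p under 0.05 numbered 0 throughout, and over the whole array 0 except for 1 by the methods' t-test. Probes that differed from the others of their gene at an adjusted p under 0.05 numbered 0 to 12 with an array left out, 9 without MOTS-c replicate 2 and 12 without MOTS-c replicate 3. Pathway genes called higher numbered 8 with no filter and 3 to 6 with an array left out, and genes called lower 4 to 9.

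Values near 0 changed sign. Under the 75th percentile shift Traf2 probe A_55_P2092963 gave -0.0079. Under normexp it gave -0.0782, Birc2 -0.0285, Htra2 0.0047 and the difference of Ripk1 probe A_52_P174775 from the others 0.0828. With each array left out in turn, probe values ran from -0.0789 to 0.1166 for Birc2 (as probe and as gene), from -0.0579 to 0.128 for Cflar A_52_P226929, from -0.047 to 0.0879 for Traf2 A_55_P2092963 and from -0.0021 to 0.1068 for Ripk1 A_55_P2506630. The difference from the gene's other probes ran from -0.1528 to 0.1571 for Tnfrsf1a A_51_P106047, from -0.1571 to 0.1528 for Tnfrsf1a A_52_P192426 and from -0.0865 to 0.1195 for Cflar A_52_P226929. Gene values ran from -0.1968 to 0.5686 for Tnfrsf1b, from -0.0645 to 0.4322 for Xiap, from -0.069 to 0.0018 for Htra2, from -0.2997 to 0.0126 for Dffb and from -0.1284 to 0.5207 for Pycard. The cause was not tested. The dim probes Ripk1 A_55_P2713935 and Cflar A_55_P2636405 were well above background on all 4 arrays. After background was subtracted, their signals were no more than 2.00 times the local background. Ccl5 and Fas rest on probes that were not well above background on every array.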
